A study of Mus musculus with 32 samples.

Results

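Hcls1, Dock8, Col5a3, Dnah9, Ccdc63 and Gdpd3 are 6 mouse genes whose transcripts were scarcer in photoreceptors of clock-mutant animals. They were chosen by measured values, having some of the lowest fold changes in the mutant among genes with the same sign at every time sampled, so their difference between genotypes is given here as a description, without a test. All 6 passed the filter on low counts, out of 17871 genes tested and 54232 in the deposited table. The material was photoreceptors, that is, retinal rods and cones, collected by laser capture microdissection from snap-frozen eyes of 6-week-old male mice, and their RNA was sequenced. The mutant animals (KO) carried the genotype Per1-/-Per2Brdm1, and the comparison animals were wild type (WT). Both genotypes had the strain label C57BL/6/J x 129 SvEvBrd. Eyes were taken at CT19, CT22, CT1 and CT10, where CT is circadian time, and each of the 8 groups held 4 libraries. The mutations are carried in the whole animal and not only in photoreceptors, and no label states the light conditions. One library, WT replicate 5 at CT1, carries 2 animal numbers in its title and was used as 1 library.

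Period proteins form the inhibitory arm of the circadian clock, entering the nucleus to hold back the transcription driven by CLOCK and BMAL1, and Brdm1 is known as an allele of Per2 that lacks part of the PAS domain. The 6 genes do not form a known clock pathway. Hcls1 encodes a relative of cortactin that binds the Arp2/3 complex and branched actin, and Dock8 encodes an exchange factor that activates the small GTPase Cdc42; both are known mainly from blood cells. Col5a3 encodes a chain of type V collagen, which takes part in building fibrils of the extracellular matrix. Dnah9 encodes a heavy chain of the outer dynein arm, the motor that makes motile cilia beat, and Ccdc63 encodes a coiled-coil protein related to the docking factors that fix such arms to the axoneme, known in mouse from sperm flagella. The outer segment of a photoreceptor is a modified cilium, but one that does not beat. Gdpd3 encodes a glycerophosphodiester phosphodiesterase that makes lysophosphatidic acid from lysophospholipids.

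The genes lie on 6 different chromosomes (GENCODE M21, GRCm38). Hcls1 (ENSMUSG00000022831) is at chr16:36934983-36963212 on the plus strand, Dock8 (ENSMUSG00000052085) at chr19:24999534-25202432 on the plus strand, and Col5a3 (ENSMUSG00000004098) at chr9:20770050-20815067 on the minus strand. Dnah9 (ENSMUSG00000056752) is at chr11:65831282-66168551 on the minus strand, Ccdc63 (ENSMUSG00000043036) at chr5:122108040-122140823 on the minus strand, and Gdpd3 (ENSMUSG00000030703) at chr7:126766334-126775649 on the plus strand. Dnah9 was the only one of the 6 on a chromosome that carries a targeted gene. It ends 2926666 bp before Per1 (chr11:69095217-69109960), and none of the 6 shares chromosome 1 with Per2 (chr1:91415982-91459324).

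The RefSeq promoter table (GRCm38.p6) held a window from 250 bases before to 50 bases after the transcription start for 5 of the 6 genes, Ccdc63 being the one without. The bases before the start are printed for Hcls1 and Col5a3, which had the widest gaps between genotypes, and for Dnah9, which shares a chromosome with Per1. They lie at chr16:36934733-36934982 on the plus strand, chr9:20815068-20815317 on the minus strand and chr11:66168552-66168801 on the minus strand, and each is written 5′ to 3′, with capitals for the only clock or photoreceptor motif that was found.
Hcls1: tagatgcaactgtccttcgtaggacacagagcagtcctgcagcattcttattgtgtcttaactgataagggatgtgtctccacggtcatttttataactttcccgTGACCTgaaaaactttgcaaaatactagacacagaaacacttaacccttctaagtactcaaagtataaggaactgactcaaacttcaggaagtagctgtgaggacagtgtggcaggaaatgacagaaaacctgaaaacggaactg
Col5a3: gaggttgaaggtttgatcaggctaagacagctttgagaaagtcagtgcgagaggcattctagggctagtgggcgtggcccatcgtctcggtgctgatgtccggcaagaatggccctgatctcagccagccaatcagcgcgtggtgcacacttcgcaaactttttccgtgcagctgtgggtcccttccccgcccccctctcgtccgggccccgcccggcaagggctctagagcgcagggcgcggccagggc
Dnah9: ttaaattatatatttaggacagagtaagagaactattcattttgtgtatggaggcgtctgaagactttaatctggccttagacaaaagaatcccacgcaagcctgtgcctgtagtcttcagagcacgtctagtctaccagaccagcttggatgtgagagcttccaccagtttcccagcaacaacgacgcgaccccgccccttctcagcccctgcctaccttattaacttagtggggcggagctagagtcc
The capitals in Hcls1 are TGACCT, the reverse complement of AGGTCA, the core of the RORE element to which the clock factors of the ROR and REV-ERB families bind; they begin 145 bases before the start. Both strands of the whole windows were searched for the E-box CACGTG, the D-box TTANGTAA, the RORE core AGGTCA and TAATCC, a motif of the photoreceptor factor CRX. No other match was present in the 5 windows. Of all 32851 promoter windows in the table, 7.15% held the E-box, 2.32% the D-box, 16.3% the RORE core and 7.06% the CRX motif, so 1 match for the RORE core in 5 windows is close to its share over all genes.

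Levels are given as CPM, counts relative to the size of the library after TMM scaling, a correction for differences in library composition. The libraries held 23833604 to 34582742 counts each. The targeted genes differed in level between the genotypes: Per1 averaged 208 ± 41.0 CPM in KO and 118 ± 18.7 CPM in WT, and Per2 averaged 198 ± 24.5 CPM in KO and 30.7 ± 8.30 CPM in WT (SD, n = 16 libraries per genotype). Counts per whole gene include exons outside a deletion, so these levels do not check it. The rod markers summed to between 79360 and 116200 CPM in KO libraries and between 86270 and 141900 CPM in WT libraries, and the cone markers to between 1588 and 2800 CPM in KO and between 1974 and 3120 CPM in WT, so the labelled tissue carried its defining transcripts. Of these, 3 of 9 rod markers and 3 of 7 cone markers were called lower in KO and 1 rod marker higher. Markers of the inner retina were also present and higher in KO: 8 of 10 bipolar markers, 5 of 10 Müller glia markers and 4 of 8 amacrine markers were called higher and none lower (edgeR quasi-likelihood test, adjusted p under 0.05). Their sums ran from 426 to 848 CPM in KO against 352 to 707 CPM in WT for bipolar cells, from 688 to 1464 CPM against 430 to 1137 CPM for Müller glia, and from 115 to 221 CPM against 86.6 to 174 CPM for amacrine cells. Lens markers summed to between 135 and 4459 CPM in KO and between 51.7 and 7733 CPM in WT, with 1 of 8 called lower in KO and a median log2 fold change of −0.71, and 3 of 10 markers of blood and vessels were called higher. Rod, cone and lens markers thus leaned the same way as the 6 genes with the 4 times averaged. The lens sum went the other way at CT19, averaging 813 CPM in KO and 434 CPM in WT. At CT22, CT1 and CT10 it was lower in KO, with 1686 CPM against 3913 CPM at CT1. The part of these markers in the results was not tested. In bulk libraries like these, fewer cells of a type and less RNA per cell cannot be told apart.

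Hcls1 showed the widest gap between genotypes. Its 16 KO libraries had a lowest value of 12.2 CPM, a median of 14.9 CPM and a highest of 23.9 CPM, and the 16 WT libraries a lowest of 53.7 CPM, a median of 75.5 CPM and a highest of 106 CPM. Every KO library thus lay below every WT library, and the transcript was reduced but still counted, with 355 to 740 counts per KO library against 1480 to 2713 counts per WT library. The mean was 16.1 ± 3.61 CPM in KO and 74.5 ± 13.6 CPM in WT (SD, n = 16 each), so KO kept 21.5% of the WT level, and the fitted log2 fold change was −2.21 (SE 0.10). At CT19 the KO libraries had 14.5, 12.8, 13.3 and 23.9 CPM, against 57.8, 64.2, 106 and 75.7 CPM in WT libraries. At CT22 they had 14.6, 12.4, 14.6 and 19.4 CPM, against 61.9, 77.2, 63.0 and 86.8 CPM in WT. At CT1 they had 17.5, 18.2, 23.7 and 15.2 CPM, against 53.7, 84.4, 75.3 and 63.6 CPM in WT. At CT10 they had 16.1, 15.2, 12.2 and 14.2 CPM, against 80.4, 77.0, 89.8 and 74.5 CPM in WT, so the level of neither genotype stood apart at any one time. Taking CT19, CT22, CT1 and CT10 in turn, the log2 fold change was −2.24, −2.25, −1.89 and −2.48 (SE 0.20 each).

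Dock8 was lower in KO with some overlap. The KO libraries had a lowest value of 5.23 CPM, a median of 8.98 CPM and a highest of 15.6 CPM, against 11.5, 24.9 and 35.5 CPM in WT libraries. The mean was 9.53 ± 3.03 CPM in KO and 24.8 ± 6.95 CPM in WT (SD, n = 16 each), a log2 fold change of −1.42 (SE 0.14), or 37.5% of the WT level. Of the 16 KO libraries, 4 were at or above the lowest WT library. The genotypes came closest at CT10, where the KO libraries had 14.2, 10.8, 15.6 and 11.6 CPM and the WT libraries 22.1, 15.6, 17.5 and 31.9 CPM. At CT22 the KO libraries had 5.23, 7.66, 8.70 and 8.38 CPM, and the WT libraries 25.5, 11.5, 24.4 and 35.5 CPM, so one WT library stood near the KO range. In the order of the times its log2 fold changes were −1.75, −1.69 and −1.47, and then −0.74 at CT10 (SE 0.27 to 0.28).

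Hcls1 and Dock8 are known from blood cells, and the markers of microglia and leucocytes were therefore read beside them. The 18 markers of that list summed to between 5.61 and 11.8 CPM in KO libraries and between 3.22 and 9.89 CPM in WT libraries, with 2 of 11 tested markers higher in KO and none lower. In each library that sum was under the level of Hcls1 alone, and it was on the whole higher in the genotype in which Hcls1 and Dock8 were lower. The part of such cells in the levels of Hcls1 and Dock8 was not tested.

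Col5a3 was a low transcript in both genotypes. The KO libraries had a lowest value of 0.411 CPM, a median of 0.975 CPM and a highest of 1.64 CPM, and the WT libraries a lowest of 2.40 CPM, a median of 3.76 CPM and a highest of 7.93 CPM. No KO library reached the lowest WT library, although these levels rest on only 13 to 49 counts per KO library against 78 to 211 counts per WT library. The mean was 0.968 ± 0.347 CPM in KO and 4.07 ± 1.37 CPM in WT (SD, n = 16 each), and the log2 fold change was −2.06 (SE 0.17). In the order of the times it was −2.12, −2.16, −2.05 and −1.91 (SE 0.34 to 0.35), the narrowest spread over the times among the 6 genes. The KO libraries were tight at CT1, with 1.33, 1.11, 1.18 and 1.09 CPM, and wide at CT19, with 1.11, 1.64, 0.411 and 0.466 CPM, while the WT libraries had 2.87, 5.02, 7.93 and 3.78 CPM at CT1 and 3.39, 5.32, 3.43 and 3.76 CPM at CT19. Markers of fibroblasts, which make type V collagen elsewhere in the body, summed to between 0.934 and 3.29 CPM in KO and between 0.649 and 2.39 CPM in WT, with 0 of 5 called.

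The axonemal genes Dnah9 and Ccdc63 differed in how tightly their libraries sat. Dnah9 had a lowest value of 12.3 CPM, a median of 20.8 CPM and a highest of 30.7 CPM in KO, against 23.9, 53.9 and 101 CPM in WT. Its mean was 21 ± 4.81 CPM in KO and 55.5 ± 20.4 CPM in WT (SD, n = 16 each), a log2 fold change of −1.40 (SE 0.17). The genotypes overlapped at CT19, with 21.8, 27.1, 18.1 and 12.3 CPM in KO and 23.9, 50.5, 71.2 and 38 CPM in WT, and at CT22, with 22, 18.5, 24.3 and 16 CPM in KO and 44.1, 41.0, 24.1 and 101 CPM in WT. In both cases a single WT library lay inside the KO range. At CT10 the genotypes were well apart, with 26, 18.8, 18.6 and 15 CPM in KO and 69.7, 68.0, 57.2 and 71.0 CPM in WT. Its log2 fold changes at the successive times were −1.21, −1.38, −1.24 and −1.76 (SE 0.33 to 0.34).

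Ccdc63 had a lowest value of 3.50 CPM, a median of 4.66 CPM and a highest of 7.61 CPM in KO, against 8.40, 12.4 and 17.4 CPM in WT, without overlap. The mean was 5.01 ± 1.08 CPM in KO and 12.6 ± 2.40 CPM in WT (SD, n = 16 each), and the log2 fold change of −1.33 (SE 0.10) was the smallest of the 6. By time it was −1.28, −1.32, −1.03 and −1.71 (SE 0.19 to 0.20). The genotypes came closest at CT1, with 6.60, 4.30, 7.61 and 3.82 CPM in KO and 11.3, 8.40, 12.3 and 13.5 CPM in WT, and were farthest apart at CT10, with 4.32, 3.50, 4.21 and 4.67 CPM in KO and 10.8, 17.4, 13.1 and 13.2 CPM in WT.

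Gdpd3 did not follow the label of a gene lost in the mutant at all times. Its libraries fell on either side of a gap between 2.81 and 7.03 CPM in both genotypes, with 12 KO libraries below it and 4 above, against 4 WT libraries below it and 12 above. At CT19 the KO libraries had 1.13, 1.41, 10.6 and 1.72 CPM, against 1.92, 28.5, 2.20 and 24.6 CPM in WT libraries. At CT22 they had 1.25, 7.03, 1.55 and 2.81 CPM, against 17.8, 23, 34.1 and 17.2 CPM in WT. At CT1 they had 13.8, 1.87, 1.95 and 1.0 CPM, against 11.8, 19.4, 15.8 and 11.4 CPM in WT. At CT10 they had 1.25, 1.26, 1.44 and 11.3 CPM, against 11.7, 1.52, 11.2 and 0.922 CPM in WT. One KO library at each time was thus high, and 2 WT libraries at CT19 and 2 at CT10 were as low as most KO libraries. The mean was 3.83 ± 4.28 CPM in KO and 14.6 ± 9.99 CPM in WT (SD, n = 16 each), with a log2 fold change of −1.80 and an SE of 0.51, the largest SE of the 6. By time the log2 fold change was −1.94, −2.87, −1.66 and −0.75, with SEs of 1.01 to 1.06, and the 4 KO and 4 WT libraries were separate only at CT22.

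**Figure D1:**
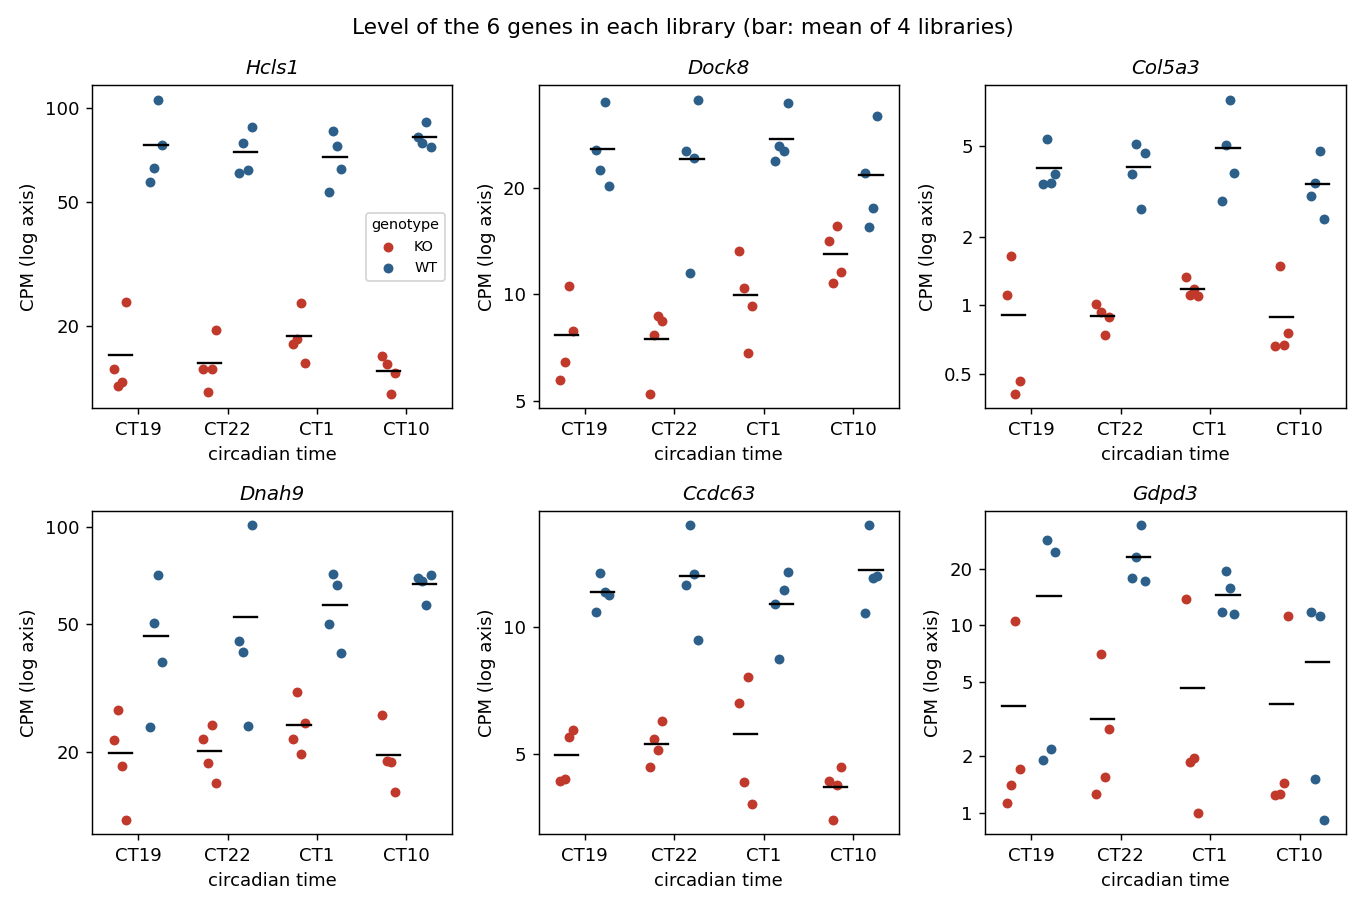
Level of each of the 6 genes in every library, in CPM on a log axis, by circadian time, with KO in red on the left and WT in blue on the right of each pair; black bars are means of 4 libraries. Hcls1, Col5a3 and Ccdc63 have no overlap between genotypes, Dock8 overlaps at CT10, Dnah9 at CT19 and CT22, and Gdpd3 has high and low libraries in both genotypes.

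Levels per kilobase of annotated exon allow only a rough comparison between genes. The length took all annotated exons of a gene together, which can exceed the transcript that is present. By this measure Hcls1 was the most abundant of the 6 in both genotypes, at 6.38 CPM per kb in KO and 29.5 CPM per kb in WT. Gdpd3 followed, at 1.75 CPM per kb in KO and 6.67 CPM per kb in WT, and Dnah9, at 1.32 CPM per kb in KO and 3.48 CPM per kb in WT. Dock8 had 0.946 CPM per kb in KO and 2.47 CPM per kb in WT, and Ccdc63 had 0.681 CPM per kb in KO and 1.71 CPM per kb in WT. Col5a3 was the least abundant, at 0.142 CPM per kb in KO and 0.598 CPM per kb in WT.

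Across the table as a whole, 16.3% of the tested genes were called different between the genotypes when the 4 times were averaged, and 6.4% were called lower in KO. Every KO library lay below every WT library for 3 of the 6 genes, Hcls1, Col5a3 and Ccdc63, and for 0.112% of all tested genes. The same 3 were called lower at each of the 4 times separately, as were 0.0951% of all tested genes. At single times, 5 of the 6 were called lower at CT19 and CT22 and 4 at CT1 and CT10, against 2.31%, 0.627%, 0.515% and 3.02% of all tested genes at the 4 times in turn. Dnah9 was missed at CT1, Dock8 at CT10 and Gdpd3 at every time. The 4 KO libraries lay below the 4 WT libraries for 4 of the 6 genes at CT19 and CT10 and 5 at CT22 and CT1, against 4.56%, 9.08%, 3.11% and 3.36% of all tested genes in that order. These shares come from the contrast by which the genes were picked, and nothing is read from them. A ranking by that fold change took genes called lower over the mean of the 4 times, with the same sign at every time. It left out genes of low average level, genes with provisional names and pseudogenes. In it, Ccdc63 stood at place 10 with −1.33 and Prtg at place 11 with −1.29 (SE 0.10). The choice has no clean edge, since Fabp7 (−4.32), Pttg1 (−3.40), Nfil3 (−1.45) and Fscn2 (−1.37) stood among the first 10 and are not among the 6.

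**Figure D2:**
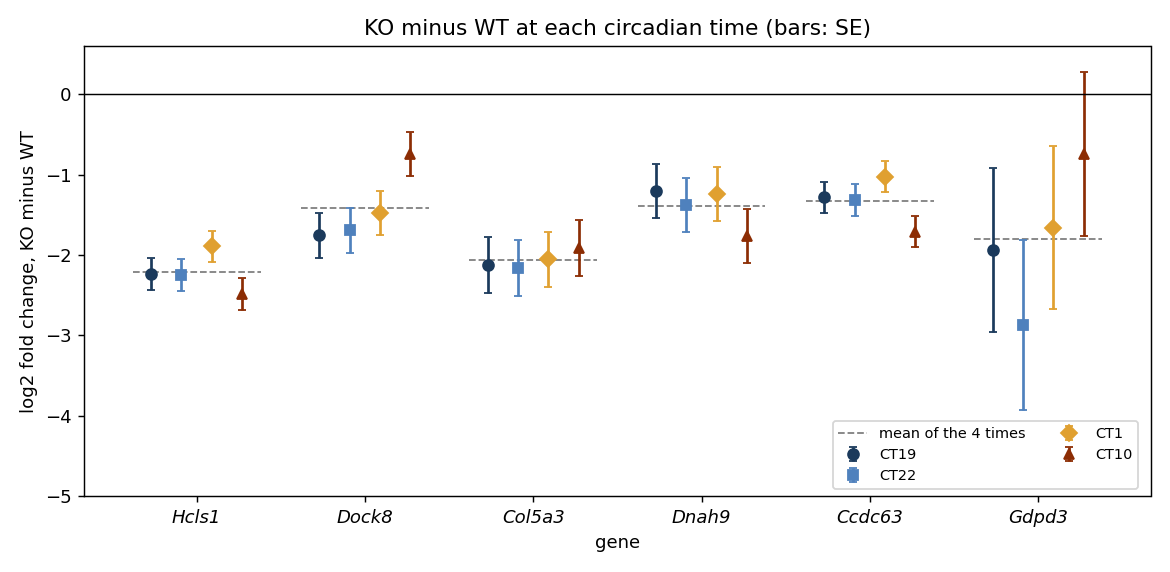
Log2 fold change of KO over WT for each of the 6 genes at CT19, CT22, CT1 and CT10 (points, with SE) and over the mean of the 4 times (dashed lines); 0 marks equal levels. All 24 points lie below 0, from −0.74 for Dock8 at CT10 to −2.87 for Gdpd3 at CT22, and the bars of Gdpd3 are the widest. The sign at every time entered the choice of the genes.

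The genes were picked for a KO difference of the same sign at every time, which favours genes that vary little over the day, so the tests over time within each genotype are not fully independent of the choice. No gene of the 6 was called different among the 4 times in KO (edgeR F test, adjusted p under 0.05), where 0.0056% of all tested genes were called, and none in WT, where 14.6% were called. At an unadjusted p under 0.05 the counts were 1 in KO and 0 in WT, and DESeq2 also called none in either. With 6 genes, 0 calls does not set them apart from either background. In WT the fitted means of the 4 times spanned 0.22 log2 units for Hcls1 (adjusted p = 0.812), 0.34 for Dock8 (adjusted p = 0.774), 0.53 for Col5a3 (adjusted p = 0.625), 0.54 for Dnah9 (adjusted p = 0.624) and 0.26 for Ccdc63 (adjusted p = 0.683), by edgeR's F test. For Gdpd3 they spanned 1.86 log2 units (edgeR adjusted p = 0.550), a span that its spread between WT libraries did not separate from 0. Per2 itself was called different among the times in WT, with a span of 0.78 log2 units (edgeR adjusted p = 0.00997).

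In KO, Dock8 had the smallest p among the 6 for a difference between times. Its KO libraries averaged 7.66 ± 2.15, 7.49 ± 1.57, 9.93 ± 2.66 and 13 ± 2.26 CPM at CT19, CT22, CT1 and CT10 (SD, n = 4 each), and the WT libraries 25.8 ± 6.51, 24.2 ± 9.87, 27.6 ± 4.88 and 21.8 ± 7.31 CPM at the same times. The KO means spanned 0.80 log2 units, with an unadjusted edgeR p of 0.020 and an adjusted p of 0.370. The other 5 genes had edgeR adjusted p-values between 0.705 and 0.994 for time in KO. Over the times, the KO difference spanned 1.01 log2 units for Dock8 and 0.25 for Col5a3; since the sign of these differences entered the choice, their change over the day is given without a test for the 6 (the genotype by time interaction was called for 1.62% of all tested genes). The test over time in WT called 1563 of all tested genes, and not 2615, without WT replicate 2 at CT10, and the 1 gene called over time in KO became 29 genes without KO replicate 5 at CT19.

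Placed in order of mean level, the 4 KO groups came below the 4 WT groups for each of the 6 genes. The choice of the genes favours this order and a wide step between the genotypes, so nothing is read from either. For Hcls1, Dock8, Col5a3, Dnah9 and Ccdc63 the step between the highest KO group and the lowest WT group was larger than the larger SD of the pair, as for Hcls1, with 18.7 ± 3.57 CPM in KO at CT1 and 69.3 ± 13.4 CPM in WT at CT1. For Gdpd3 that step, with 4.64 ± 6.09 CPM in KO at CT1 and 6.35 ± 5.93 CPM in WT at CT10, was smaller than the SD. Within a genotype, neighbours in the order differed by less than the larger SD, except for Dock8 in KO at CT1 and CT10, Ccdc63 in KO at CT10 and CT19, and Gdpd3 in WT at CT1 and CT22.

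The genes with the most similar patterns were found by the root mean square difference between log2 CPM values over the 32 libraries. Each gene was centred on its own mean. The search left out the 6, genes of low average level, genes with provisional names and pseudogenes. Since the 6 and their nearest genes carry the genotype difference, this is a description. Outside the 6, Ccdc63 had the closest match, Prtg, at 0.242 log2 units, against 0.715 for Ccdc63's own spread about its mean. Fscn2, which encodes a fascin that bundles actin in photoreceptors, was the nearest other gene to Hcls1 at 0.560 and to Dnah9 at 0.502. Nfil3, a transcriptional repressor tied to the clock, was the nearest other gene to Col5a3 at 0.578, and Abca13 and Rab37 were nearest to Dock8 at 0.492 each. Nfil3 averaged 8.93 CPM in KO and 24.7 CPM in WT, Fscn2 averaged 54.6 CPM in KO and 142 CPM in WT, and Prtg averaged 5.31 CPM in KO and 13 CPM in WT. Among the 6 themselves, Hcls1 and Col5a3 were the closest pair at 0.525 log2 units, nearer than any gene of the search was to either, and Hcls1 and Ccdc63 were 0.556 apart. For Gdpd3 the nearest gene, Cfap46, was still 1.43 log2 units away, against 1.72 for the spread of Gdpd3 itself. No gene of the search thus had values closely similar to those of Gdpd3 over the libraries.

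Other genes of each pathway were taken from lists and compared between genotypes with the 4 times averaged; 9.88% of all tested genes were higher and 6.4% lower in KO by the same test, and their median log2 fold change was close to 0. Of 21 tested genes of cortactin and Arp2/3 actin nucleation, 1 was higher and 4 were lower in KO, with a median of −0.02. The lower ones moved little: Csk, a kinase that restrains Src kinases, averaged 52.7 CPM in KO and 62.0 CPM in WT or −0.23 on the log2 scale (SE 0.04, edgeR adjusted p = 5.01e-04), Arpc5, an Arp2/3 subunit, had a log2 fold change of −0.23 (edgeR adjusted p = 0.00823) and Wasf1, an Arp2/3 activator, one of −0.15 (edgeR adjusted p = 0.00885). Wipf3, of the family that binds WASP, was higher, at 1.42 CPM in KO and 0.821 CPM in WT (log2 fold change 0.75, edgeR adjusted p = 0.00398). Cttn, the cortactin paralog of Hcls1, was not called, with 41.5 CPM in KO and 39.7 CPM in WT (log2 fold change 0.06, edgeR adjusted p = 0.274). With the inner retinal marker level as a covariate, 0 genes of this list were called higher and 1 lower. With that covariate 494 of all 17871 tested genes were called higher and 310 lower, the background for this and the following lists.

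Of 17 tested genes of the DOCK family and its small GTPase partners, 5 were higher and none lower in KO, with a median of 0.05. Elmo1, which pairs with Dock1 to activate Rac, had a log2 fold change of 0.41 (SE 0.10, edgeR adjusted p = 0.00435), Dock1 one of 0.54 (SE 0.14, edgeR adjusted p = 0.00788), and Lrch1, an inhibitor of DOCK8, one of 0.53 (SE 0.15, edgeR adjusted p = 0.0156). Dock6, a paralog in the same subfamily as Dock8, averaged 3.08 CPM in KO and 2.53 CPM in WT (log2 fold change 0.29, edgeR adjusted p = 0.0284). With the inner retinal marker level as a covariate, 0 of the 17 were called.

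Of 24 tested fibrillar collagens and their processing enzymes, 3 were higher and 1 lower in KO, with a median of 0.13. The lower gene was Bmp1, the protease that trims procollagen, at 6.72 CPM in KO and 9.65 CPM in WT (log2 fold change −0.52, SE 0.12, edgeR adjusted p = 0.00402). Its relative Tll1 was higher (log2 fold change 0.78, edgeR adjusted p = 0.00824), as were the collagen genes Col2a1 (0.67, edgeR adjusted p = 0.0109) and Col27a1 (0.76, edgeR adjusted p = 0.0328). The other chains of type V collagen were not called: Col5a1 averaged 0.942 CPM in KO and 0.706 CPM in WT (log2 fold change 0.51, edgeR adjusted p = 0.119), and Col5a2 ranged from 0 to 31.1 CPM in KO and from 0 to 3.70 CPM in WT (log2 fold change 2.45, SE 1.16, edgeR adjusted p = 0.160). With the inner retinal covariate 1 gene of this list was called higher and 0 lower.

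Of 26 tested genes of axonemal dyneins, their docking and their assembly, 8 were higher and none lower in KO, with a median of 0.23, and DESeq2 called 8 higher and 1 lower. Dnah2, a heavy chain of the inner dynein arm, averaged 0.684 CPM in KO and 0.222 CPM in WT, a log2 fold change of 1.47 (SE 0.35, edgeR adjusted p = 0.00407); it lies at chr11:69420809-69549110, close to Per1. Ccdc39, a ruler of axonemal spacing, averaged 35.3 CPM in KO and 26.3 CPM in WT (log2 fold change 0.46, SE 0.12, edgeR adjusted p = 0.00677). Ccdc151, a docking factor, had a log2 fold change of 0.40 (edgeR adjusted p = 0.00924), and Dnah7c, another inner arm heavy chain, one of 0.97 (edgeR adjusted p = 0.00942). The paralogs closest in role did not pass: Dnah11 had 0.708 CPM in KO and 0.494 CPM in WT (edgeR adjusted p = 0.139), Dnah17 had 1.36 CPM in KO and 1.33 CPM in WT (edgeR adjusted p = 0.833), and Ccdc114 had 0.448 CPM in KO and 0.386 CPM in WT (edgeR adjusted p = 0.612). Among 5 tested regulators of motile cilia, Myb was higher (log2 fold change 0.70, edgeR adjusted p = 0.00609), and Foxj1, the master regulator of motile cilia, was not called, at 6.35 CPM in KO and 5.25 CPM in WT (log2 fold change 0.28, edgeR adjusted p = 0.346). With the inner retinal covariate 5 genes of the axonemal list were called higher and 0 regulators.

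Of 15 tested genes of the GDPD family and of enzymes of N-acylethanolamine or lysophosphatidic acid metabolism, none was higher and 2 were lower in KO, with a median of 0.03. Naaa, which breaks down N-acylethanolamines, averaged 45.0 CPM in KO and 51.3 CPM in WT (log2 fold change −0.19, edgeR adjusted p = 0.00197), and Plpp2, a lipid phosphatase, averaged 107 CPM in KO and 123 CPM in WT (log2 fold change −0.20, edgeR adjusted p = 0.0359). Gdpd1, the paralog with the same enzyme activity, was not called, at 43.9 CPM in KO and 48.4 CPM in WT (log2 fold change −0.14, edgeR adjusted p = 0.0793). The more distant paralogs Gdpd5 (log2 fold change −0.06, edgeR adjusted p = 0.313) and Gde1 (0.05, edgeR adjusted p = 0.549) were also not called. With the covariate, 1 gene of this list was called higher and 0 lower.

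**Figure D3:**
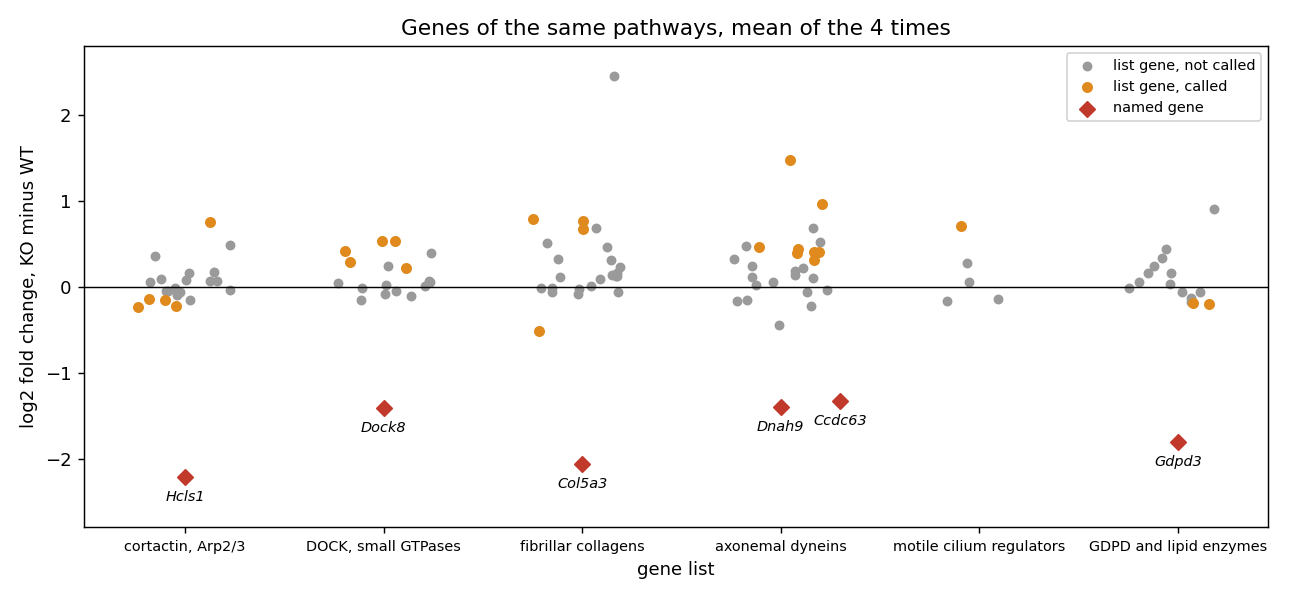
Log2 fold change of KO over WT, mean of the 4 times, for the tested genes of 6 lists (grey, not called; orange, called) and for the 6 genes themselves (red diamonds). The 6 genes lie between −1.33 and −2.21, below all the tested genes of their own lists. They were chosen for low values of this same fold change, so nothing is read from their place.

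The inner retinal markers moved with the genotype, as given above. With their mean log2 CPM as a covariate the log2 fold changes of the 6 genes were −1.94 for Hcls1, −1.37 for Dock8, −1.93 for Col5a3, −1.31 for Dnah9, −1.20 for Ccdc63 and −2.21 for Gdpd3. The Gdpd3 value differed from the −1.80 without the covariate by less than its SE of 0.51. Gdpd3 was the only one of the 6 not called with the covariate (edgeR adjusted p = 0.0767). Such calls come from the contrast by which the genes were picked, and nothing is read from them. With that covariate 4.50% of all tested genes were called, against 16.3% without it.

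Along the chromosomes, among the 36 tested genes that form the 3 nearest on each side of each of the 6, 3 were higher and 6 lower in KO, with a median log2 fold change of 0.01. That is 25% called and 16.7% called lower, against 16.3% and 6.4% of all tested genes. Beside Hcls1, Gm49600 and Polq had log2 fold changes of 0.06 and 0.12, and Golgb1, 1898 bp away, had −0.02; Stxbp5l was called at 0.24 (edgeR adjusted p = 0.0471). Beside Dock8, Cbwd1 and Kank1 both had −0.08, Fam122a was called at −0.19 (edgeR adjusted p = 0.00348), and Pgm5 was called at 1.28, with 0.544 CPM in KO and 0.249 CPM in WT (edgeR adjusted p = 0.00110). Both neighbours of Col5a3 were called lower, by much less than Col5a3 itself: Rdh8, a retinol dehydrogenase of photoreceptor outer segments 3436 bp away, averaged 165 CPM in KO and 204 CPM in WT, which is −0.30 on the log2 scale (SE 0.04, edgeR adjusted p = 1.06e-05), and Olfm2 had −0.29 (edgeR adjusted p = 0.0483).

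Beside Ccdc63, Cux2 had 0.12, Ppp1cc, a phosphatase subunit, averaged 74.1 CPM in KO and 92.9 CPM in WT (log2 fold change −0.33, edgeR adjusted p = 1.72e-06), and Sh2b3, a signalling adaptor, averaged 7.13 CPM in KO and 4.30 CPM in WT (log2 fold change 0.73, edgeR adjusted p = 8.80e-09). Beside Gdpd3, Mapk3, 515 bp away, had 0.03, and Ypel3 had −0.16 (edgeR adjusted p = 0.0380). Gm9967 overlaps Gdpd3 on the opposite strand, sharing 298 bp out of 2186 bp of Gdpd3 exon. It had 3.52 CPM in KO and 3.46 CPM in WT (log2 fold change 0.02, edgeR adjusted p = 0.899). The strand setting of the counting is not given, so reads from this shared stretch cannot be told apart. Their part in the low Gdpd3 libraries, which went down to 32 counts in KO and 30 in WT, was not tested.

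Beside Dnah9, Zkscan6, 2043 bp away, had 0.04, while Gm12296, on the opposite strand, averaged 0.468 CPM in KO and 1.28 CPM in WT (log2 fold change −1.42, SE 0.19, edgeR adjusted p = 1.73e-06). Gm12296 shares 495 bp of exon with Dnah9, out of 15949 bp of Dnah9 exon. The strand setting of the counting is not given in the sources used here, so reads from the shared stretch cannot be told apart. Gm12296 had 822 counts over all libraries, while Dnah9 had 344 to 971 counts per KO library and 746 to 2888 per WT library. The part of Dnah9 reads in the Gm12296 counts was not tested. Within 5 Mb of Per1, leaving out Per1 and Dnah9, 33 of 150 tested genes were called, or 22% against 16.3% of all tested genes, with 14 higher and 19 lower in KO. Within 5 Mb of Per2, leaving out Per2, 10 of 81 were called, or 12.3%, with 6 higher and 4 lower. With the inner retinal covariate the share around Per1 was 5.33%, against 4.50% of all tested genes. Ccdc63 shares 60 bp of exon with Myl2, which was not tested and had 35 counts over all libraries.

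**Figure D4:**
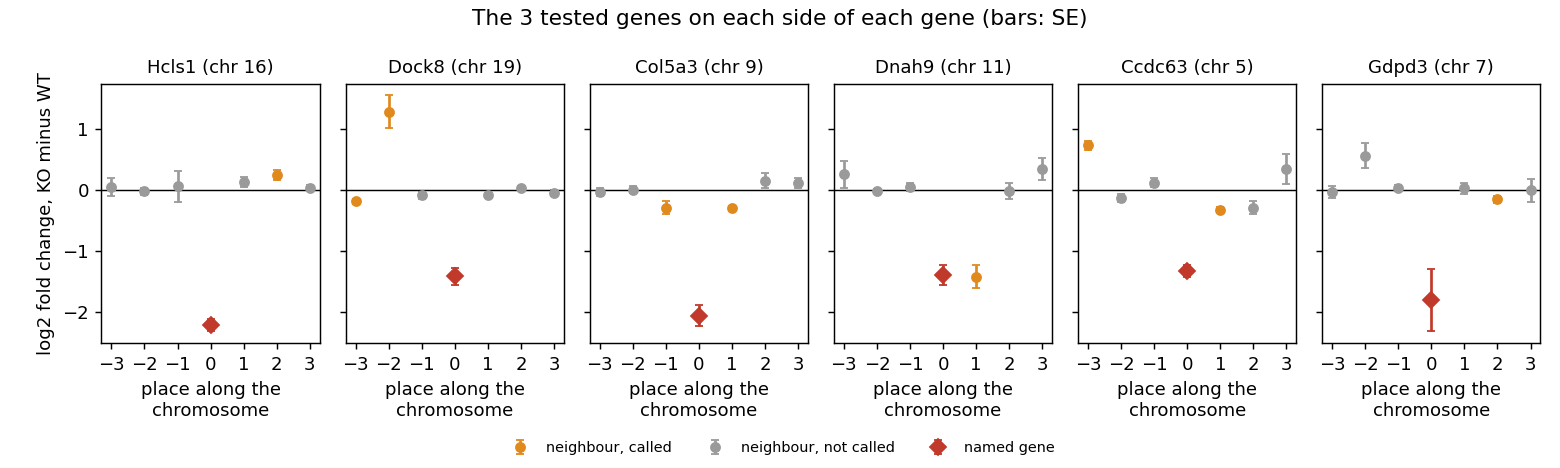
Log2 fold change of KO over WT (with SE) for each of the 6 genes (red diamonds, place 0) and for the 3 tested genes on each side, ordered along the chromosome; orange points were called and grey points were not. Of the 36 neighbours, Gm12296 beside Dnah9 is the only one as low as its named gene, at −1.42.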

How the data were processed

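RNA of microdissected mouse photoreceptors was analysed in 32 libraries, 4 for each of 2 genotypes at 4 circadian times, grouped by their labels. The values are raw read counts per Ensembl gene, as deposited by the authors in 1 table. Trimmomatic 0.32, HTSeq 0.11, HISAT2 2.1.0 and Cufflinks are listed, with build GRCm38.p6, per the submitters' processing notes; the strand setting is not given in the sources used here. GENCODE M21 (GRCm38) named 99.9% of the gene identifiers.

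The counts were fitted in R 4.3.3 with edgeR 4.0.16 (robust quasi-likelihood fit, TMM scaling, 8 group means, 24 residual degrees of freedom). filterByExpr (minimum count 10, minimum total 15) kept 17871 genes. Benjamini-Hochberg adjustment ran over all of these, and a gene is called at an adjusted p under 0.05. P-values measure the spread between libraries that the labels number as separate animals. SEs are the fold change divided by the square root of F. DESeq2 1.42.0 was an alternative, beside other scaling, no filter, a replicate block, an inner retinal marker covariate and leaving out each library. The procedure was tested on simulated data.

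The members and lists were chosen with earlier results of these data known. The genes named were the 6, Per1 and Per2, the 3 most similar genes of each, up to 4 called genes with the smallest p and the paralogs in each list, the nearest tested and the called neighbours, and the genes at the edge of the choice. Some genes that this rule picked are not reported here.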

Additional observations from a re-analysis of the deposited data

Results flagged for a closer look

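In 5 of the 48 sets of 4 libraries checked (6 genes in 8 groups), the highest library stood farther from the others than Dixon's critical value of 0.829 allows; chance flags about 1 in 20 sets. For Gdpd3 these were KO replicate 4 at CT19 with 10.6 CPM, KO replicate 1 at CT1 with 13.8 CPM and KO replicate 5 at CT10 with 11.3 CPM. For Hcls1 it was KO replicate 5 at CT19 with 23.9 CPM, still below the lowest WT library. For Col5a3 it was KO replicate 3 at CT10 with 1.48 CPM.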

How the results depend on the processing

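The log2 fold changes of the 6 genes between KO and WT kept their direction. They moved by less than their SE under other scaling, without the filter and when leaving out 1 library. Leaving out 1 library gave −2.28 to −2.16 for Hcls1, −1.48 to −1.36 for Dock8 and −2.17 to −1.98 for Col5a3. It gave −1.45 to −1.27 for Dnah9, −1.38 to −1.29 for Ccdc63 and −2.19 to −1.66 for Gdpd3. With the inner retinal covariate, Hcls1 at −1.94 and Ccdc63 at −1.20 moved by more than their SE. The 3 genes without overlap between genotypes (a count added after seeing the data) numbered 3 under each scaling, without the filter and when leaving out any library. No setting called a difference over time within a genotype for any of the 6. The labels do not say that replicate numbers pair animals: over 77 pairs of libraries with the same number, deviations from the group means had a median correlation of 0.00855, with 23 pairs over 0.1. A replicate block gave 3069 genes different between KO and WT, 2237 changing over time in WT, 0 in KO and 308 with an interaction. Over all genes, the count changing over time in KO was 1, and it was 183 by DESeq2, 5 without the filter, 0 with a block of title numbers, 2 with the inner retinal covariate and 0 to 29 when leaving out 1 library. The count of genes with a genotype by time interaction was 289, and it was 913 by DESeq2, 148 with the covariate and 142 to 429 leaving out 1 library, with 142 to 173 without any one of KO replicates 2, 4 and 5 or WT replicates 2 and 5 at CT10. Calls over time in WT were 1307 with the covariate and 1563 to 3144 leaving out 1 library, and calls between KO and WT were 804 with the covariate. The share called within 5 Mb was 10.2% around Per1 and 4.52% around Per2 without the filter, against 6.41% of all genes tested that way, and 5.33% around Per1 with the covariate. The cause of these moves was not tested. Depth limits Col5a3, at 13 to 49 counts per KO library, and Gdpd3, whose lowest WT library had 30 counts.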
